A study of Homo sapiens with 17 samples.

Results

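Ubiquitin-specific proteases, encoded by the USP genes, are the largest family of enzymes that remove ubiquitin from proteins. Regions were taken as USP regions where the deposited annotation of a region held an exon, promoter-exon, intron or promoter-intron mark of a gene named USP followed by digits and an optional letter. HPr1AR has 698 of them among 139373 regions, LNCaP has 568 among 110260 and 22Rv1 has 341 among 77311, or 1607 of 326944 regions over the 3 tables. They fell in 45 genes in HPr1AR and 46 in LNCaP and 22Rv1. All 46 genes were listed in at least 1 line. RefSeq names 51 protein-coding genes that fit the same pattern, and USP6, USP26, USP29, USP44 and USP50 had no region in any table. USP9Y, a Y-linked gene, had no region in the HPr1AR table.

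RNA fragments carrying N6-methyladenosine (m6A), a methylated adenosine of messenger RNA, were pulled down from total RNA with an m6A antibody in 3 prostate cell lines, using a commercial enrichment kit, with an unspecific IgG pull-down as background. HPr1AR cells are immortalised prostate epithelium, not malignant, with an added androgen receptor. LNCaP cells come from a prostate cancer that responds to androgen, and 22Rv1 cells from one able to grow in its absence. All samples were labelled as wild type and vehicle-treated. The 17 samples formed 6 groups, with 3 IgG samples in each line, 3 m6A samples in HPr1AR and LNCaP, and 2 m6A samples in 22Rv1. The protocol names biological triplicates. Each line is represented by 1 deposited table without values per sample, so the errors below are counting errors and the spread between cultures cannot be given.

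Ubiquitin is attached to target proteins by ligases and is cut off again by deubiquitinases, and the balance of both sets how long a protein lasts, where it goes and what it binds. USP enzymes share a papain-like cysteine protease fold and differ in the domains around it, which direct them to histones, p53 and MDM2, the proteasome, endosomes or mitochondria. In messenger RNA, m6A is typically found in long internal exons and around the stop codon, and proteins that read it affect the splicing, decay and translation of the transcript. The deposited tables carry no stop codon, untranslated region or motif marks, and the sequence under the regions was not used here.

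Reads of each region were rebuilt from its deposited log2 fold and p-value for the 20-bp window that represents the region. The tests below make no correction for the choice of this window among the windows of its region. The headers do not say which antibody is in the numerator, so the pull-downs are called numerator and reference. A region was called higher where its numerator to reference read ratio, scaled to the rebuilt depths of 5.13 M and 11.7 M reads in HPr1AR, 3.92 M and 8.87 M in LNCaP, and 3.30 M and 4.82 M in 22Rv1, passed an exact binomial test (two-sided, Benjamini-Hochberg adjusted over the whole table, 0.05). Where the deposited p-value was 0, or no reads matched the deposited values, only the smallest possible reads are known and the ratio is given as "at least". Basal markers (5 genes) were all listed in HPr1AR and 2 of 5 in each cancer line, while 8 of 8 luminal markers were listed in both cancer lines and 4 of 8 in HPr1AR. Fibroblast markers were listed for 1 of 5 genes in each line, and leukocyte markers for 0 of 4 in HPr1AR and 1 of 4 in the others.

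The share of USP regions called higher was below the share over each whole table, and nearly every USP gene held a higher region in every line. HPr1AR had 192 of 698 USP regions higher (27.5%), against 40.6% of all its regions. LNCaP had 156 of 568 (27.5%), against 40.0%, and 22Rv1 had 141 of 341 (41.3%), against 56.4%. A further 505, 409 and 195 USP regions passed in neither direction. Across USP regions the log2 read ratio had a median of 0.50, 0.34 and 1.13 in the order HPr1AR, LNCaP, 22Rv1, which also holds for later triples, against 1.19, 1.18 and 2.10 over all regions. Lower calls numbered 1, 3 and 5 USP regions, against 0.122%, 0.161% and 0.936% of all regions. These calls rest on the depths: with depths set in the ratio of the summed rebuilt reads, the log2 ratios dropped by 1.83, 1.90 and 2.25, and USP regions split into 72 higher and 228 lower, 55 and 207, and 42 and 129. With those depths 16.1%, 16.1% and 14.5% of all regions were higher and 21.9%, 23.4% and 21.3% lower.

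Regions were listed down to lower read rates in HPr1AR than in 22Rv1. Among regions with a rate of at least 0.739 CPM (reads of the window over both pull-downs, per M reads of depth), a rate that all 3 tables cover, the shares of USP regions called higher were 45.1% of 328, 38.5% of 351 and 41.5% of 340. Over all regions at that rate the shares were 61.1%, 51.6% and 56.6%. At this shared read rate the USP share of 22Rv1 was thus below that of HPr1AR and still above that of LNCaP, while among all listed regions it was above both. In the authors' deposited table, 94.3%, 92.6% and 98.5% of USP regions passed the adjusted p of 0.05, against 96.5%, 95.4% and 99.3% of all regions. That test subtracts the log reference rate 2 times. The USP regions that failed it (40, 42 and 5) all had 0 rebuilt numerator reads. This was fixed in advance, since the rebuilding allowed only 0 numerator reads where the deposited p-value was above about 0.05.

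The share of USP regions called higher was larger at 3′ ends than at internal exons in every line. The intervals did not overlap, but they take regions as independent although many lie in the same gene. Exon regions were classed by whether the tables list another exon of the same gene within 10000 bp on either side. The 5′ end class lacks one upstream and the 3′ end class lacks one downstream. Exons beside long introns inside a gene therefore fall in these classes too. In HPr1AR, USP34 5′ end regions lay 81.1, 117 and 166 kb upstream of the end of its last listed exon region, and its exon regions reached 286 kb. At 3′ ends, the USP shares were 55.3% of 85 (exact 95% binomial interval 44.1 to 66.1), 48.8% of 82 (37.6 to 60.1) and 65.7% of 70 (53.4 to 76.7). All 3′ end regions of the tables were higher in 62.3%, 61.8% and 68.9%. At internal exons the USP shares were 20.2% of 317 (15.9 to 25.04), 19.4% of 268 (14.8 to 24.7) and 23.6% of 182 (17.7 to 30.5), against 30.5%, 27.7% and 34.2% of all internal exon regions. Internal exons made up most USP exon regions, with 317 of 465, 268 of 411 and 182 of 297. The USP 3′ end regions also held more windows than the internal ones, with medians of 50, 43.5 and 48 against 17, 16 and 13. Their median reads were 23, 22 and 30.5 against 14, 12 and 11. The part of windows and reads in the difference between the shares was not tested.

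At 5′ ends, 41.0% of 39, 42.9% of 42 and 63.3% of 30 USP regions were higher, against 57.1%, 55.2% and 61.3% of all 5′ end regions. Intron-only USP regions were higher in 24.0% of 233, 21.0% of 157 and 59.1% of 44, close to the 27.5%, 27.4% and 58.6% of all intron-only regions. The share of all internal exon regions lay above the USP interval in each line, while the share of all intron-only regions lay within it. This is a description and no test, since the intervals take regions as independent. In HPr1AR, for example, 29 exon regions lie in USP24 alone. Exon regions without another exon within reach were few, 24, 19 and 15, and 37.5% (18.8 to 59.4), 68.4% (43.4 to 87.4) and 46.7% of them were higher, against 64.5%, 62.3% and 70.6% of all such regions. The HPr1AR share over all such regions lay above the USP interval, again as a description only.

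**Figure D1:**
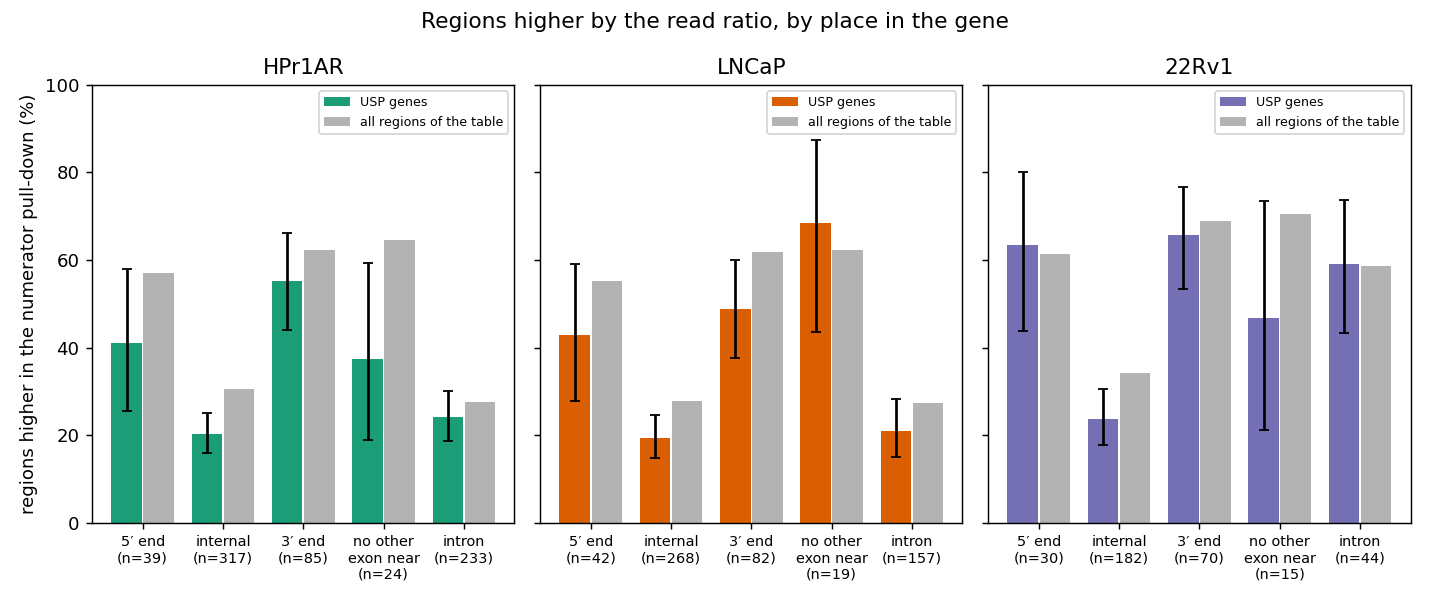
Share of regions called higher (y axis, percent) by place in the gene (x axis), with 1 panel per cell line. Coloured bars are USP regions with exact 95% binomial intervals and their number below, and grey bars are all regions of the table. The 3′ end bars of the USP genes (55.3%, 48.8% and 65.7%) stand above their internal exon bars (20.2%, 19.4% and 23.6%) in each line.

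A higher region was present in 45 of 45 USP genes listed in HPr1AR and in 45 of 46 in LNCaP and 22Rv1. Of the 45 genes listed in all 3 lines, 44 had a higher exon region in each of them. Over all genes of the tables, 93.1%, 90.7% and 91.2% had a higher region, and 87.3% of those listed in 3 lines had it in all 3. USP genes also carry more regions, with a median of 14, 10 and 6 regions per gene against 5, 4 and 4 over all genes. With the depths taken from summed reads, 24 USP genes in place of 44 had a higher exon region in each line, and USP1, USP5, USP8, USP12, USP14, USP18, USP22 and USP48 had none in any line. Counting introns too, 25 USP genes then had a higher region in each line, against 44.7% of all genes listed in 3 lines.

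Exon sites higher in every line or in none were the most frequent. Exon regions of the 3 tables, of any gene, were merged where they overlapped. A site counts as listed or higher in a line if any of its regions was. This gave 538 sites with a USP exon region, 223 of them listed in all 3 lines. Of these, 94 (42.2%) were higher in all 3 lines and 94 (42.2%) in none, leaving 21 higher in 1 line and 14 in 2. Over all 35928 such exon sites, 46.2% were higher in all 3 lines and 31.7% in none, with 11.2% in 1 line and 10.9% in 2. In all, 44 USP genes held a site higher in every line, and USP18 and USP9Y held none. Some of these calls come from merged regions without a mark of the USP gene's exons. USP5 has 2 such sites but 1 higher exon region per line, at the 3′ end in HPr1AR and 22Rv1 and the 5′ end in LNCaP. USP19 has 4 such sites but 3 higher exon regions in HPr1AR and LNCaP. The 94 sites higher in all 3 lines may thus be too many for USP exon regions alone, which were not counted apart.

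Of the 38 genes with a 3′ end region listed in all 3 lines, 33 (86.8%) had one called higher in every line, against 75.3% of all genes with such a region. USP11 and USP39 had a 3′ end region listed in all 3 and called higher in none of them. For 5′ end regions this held for 10 of 20 USP genes, against 3038 of 5521 genes in all. Such regions of USP4, USP22 and USP34 were higher in no line, and those of USP34 lay inside its listed span. At internal exons it held for 20 of 35 USP genes (57.1%), against 52.3% of all genes, and USP5, USP14, USP25, USP37, USP40 and USP46 had no higher internal region in any line. Regions of both end classes were higher in all 3 lines in 5 genes. A gene with more regions has more chances of a higher one, and USP genes carry more regions, a part that was not tested. Counted by region, the USP 3′ end shares (55.3%, 48.8% and 65.7%) lay below those of all 3′ end regions (62.3%, 61.8% and 68.9%).

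For each gene the exon region of smallest adjusted p in a line is called its leading region. Regions with a deposited p-value of 0 or without matching reads have smallest possible reads, so their adjusted p is an upper limit. The order among them, by which leading regions and genes were chosen, is not determined. Over the leading regions the median log2 read ratio was 3.65, 3.59 and 3.98, and for 22, 24 and 0 of them only the smallest possible reads are known. The range ran from 1.78 in USP5 to at least 6.92 in USP42 in HPr1AR, from 1.18 in USP18 to 6.64 in USP51 in LNCaP, and from 1.26 in USP5 to 6.57 in USP20 in 22Rv1. Leading regions lay at the 3′ end in 27, 23 and 27 genes, at internal exons in 11, 11 and 10, and at the 5′ end in 5, 9 and 7. The leading regions of all 3 lines overlapped in 28 of the 45 genes listed in each. In 5 of these 28 genes the representative windows lay at most 100 bp apart, so the overlap mostly does not compare the same window.

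**Figure D2:**
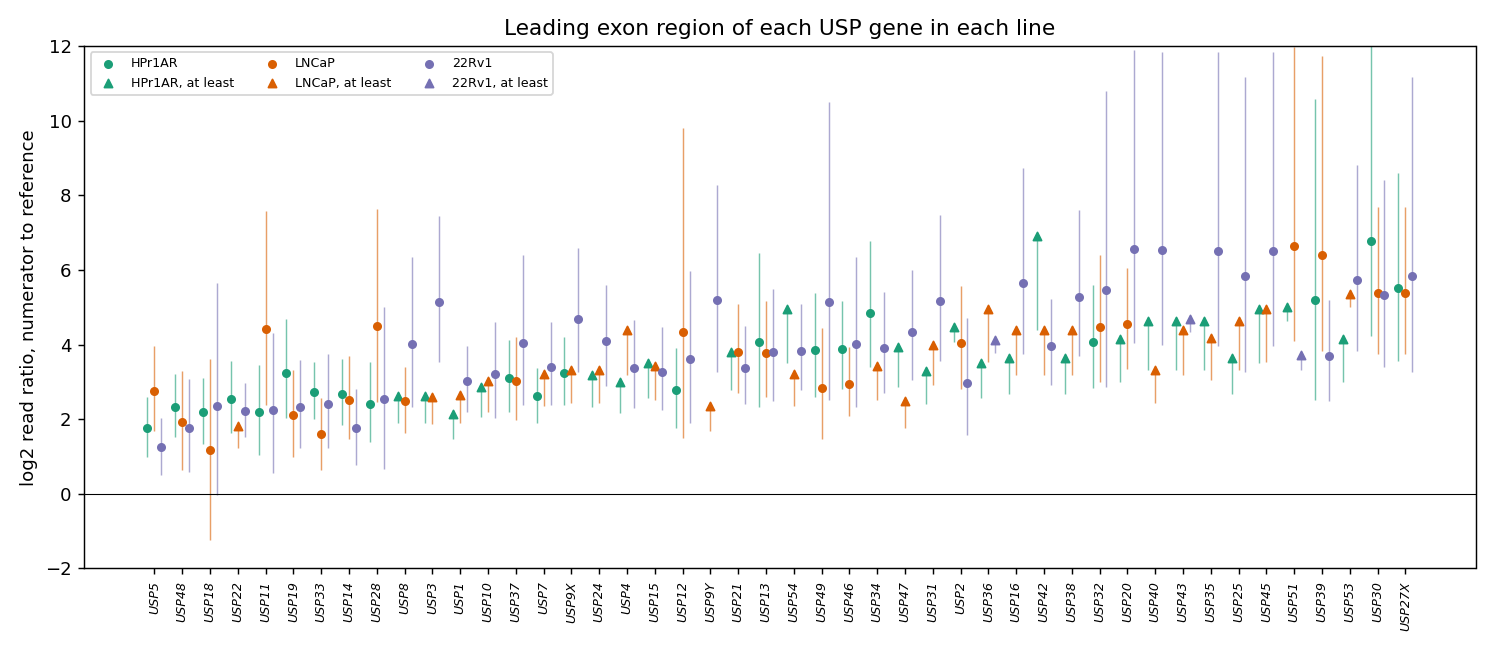
Log2 read ratio, numerator to reference (y axis), of the leading exon region of each USP gene (x axis, ordered by the median over lines), coloured by cell line. Circles are values and triangles are lower bounds, vertical lines are exact 95% binomial intervals drawn only downward for bounds, and lines that reach the top run on beyond it. USP5, USP48, USP18 and USP22 are at the low end, and USP53, USP30 and USP27X at the high end.

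The 8 genes with the smallest limits on the largest adjusted p of their leading regions over the 3 lines were USP45, USP42, USP35, USP43, USP20, USP53, USP30 and USP16. Region positions are given as deposited. The submitters' processing notes name hg38, but 15.9%, 15.7% and 15.0% of USP region and gene pairs lay within the RefSeq span of the gene on GRCh38, so the positions are not read here as those of that build.

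USP45, which acts on DNA repair proteins, led with an exon region near its 5′ end on chromosome 6, from 99893731 to 99894360 in HPr1AR, 99893681 to 99894340 in LNCaP and 99893781 to 99894340 in 22Rv1. It held at least 54 numerator reads against 4 reference reads in HPr1AR, at least 55 against 4 in LNCaP, and 62 against 1 in 22Rv1. The log2 read ratios were at least 4.95, at least 4.96 and 6.50 (95% interval from 3.97), with adjusted p of at most 7.59e-22, at most 3.16e-22 and 9.30e-22 by the exact binomial test. The numerator exceeded the reference in every line at the same place, with windows 70 bp apart.

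USP42, a deubiquitinase of p53 and histones, held the USP region with the smallest limit on the adjusted p in HPr1AR, where 42 USP regions have such limits. This internal exon region on chromosome 7, from 6196381 to 6196910, had at least 53 numerator reads against 1 reference read, a log2 ratio of at least 6.92 (adjusted p at most 3.17e-24, exact binomial test). In LNCaP and 22Rv1 the leading region was a neighbouring one from 6193371, ending at 6194950 and 6194840, with at least 56 reads against 6 and with 85 against 8. Its log2 ratios were at least 4.40 and 3.96 (2.91 to 5.21). Of the 5 USP42 exon sites listed in all 3 lines, 4 were higher in all and 1 in 2 lines.

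USP35 led with an internal exon on chromosome 11, from 77919901 to 77921800 in HPr1AR. The reads were at least 54 against 5 in HPr1AR, at least 56 against 7 in LNCaP and 62 against 1 in 22Rv1, and the log2 ratios at least 4.62, at least 4.18 and 6.50. USP43 led with an exon region on chromosome 17 that had no neighbouring exon within reach, from 9631251 to 9632870 in HPr1AR, with log2 ratios of at least 4.62 in HPr1AR and at least 4.40 in LNCaP. In 22Rv1 this region had 53 numerator reads and 0 reference reads, at least 4.69 with the reference set to 3 reads. In both genes the leading regions of the 3 lines overlapped, and all 3 shared USP43 sites were higher in every line.

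USP20, which acts in receptor recycling and is bound by the VHL ligase, led at its 3′ end in HPr1AR and 22Rv1 (chromosome 9, from 132641841 to 132644100 in HPr1AR) and at an internal exon in LNCaP (132630271 to 132632760). The log2 ratios were at least 4.14, 4.55 (3.34 to 6.05) and 6.57 (from 4.04). USP53, a protein of tight junctions, led at its 3′ end on chromosome 4, from 120213481 to 120214970 in HPr1AR, with at least 54 reads against 7 in HPr1AR. It had the smallest limit on the adjusted p in LNCaP, where 35 USP regions have limits, with at least 54 reads against 0, a log2 ratio of at least 5.35 (adjusted p at most 7.87e-26, exact binomial test), and in 22Rv1 it had 73 against 2 and a ratio of 5.74 (3.83 to 8.81). The USP53 region thus had 2 reference reads in 22Rv1, while the 0 in LNCaP is the smallest possible number and not a count.

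USP30, a mitochondrial outer membrane protease that opposes the removal of damaged mitochondria, led at its 3′ end on chromosome 12, from 109523471 to 109524050 in HPr1AR. It had 48 reads against 1 in HPr1AR, 55 against 3 in LNCaP and 55 against 2 in 22Rv1, with log2 ratios of 6.78, 5.37 and 5.33. USP16, which removes ubiquitin from histone H2A, led at an internal exon on chromosome 21, from 30418971 to 30419670 in HPr1AR, with log2 ratios of at least 3.65, at least 4.40 and 5.66. USP38 had the same largest adjusted p as USP16 (at most 4.74e-18) and held the USP region of smallest adjusted p in 22Rv1. This 5′ end region on chromosome 4, from 144106071 to 144107290, had 80 reads against 3, a log2 ratio of 5.28 (3.69 to 7.59, adjusted p = 2.12e-25, exact binomial test).

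Role groups are set below against the share of all exon regions called higher, 45.6%, 44.2% and 51.7%, and that of USP exon regions, 29.2%, 29.9% and 38.7%, and no test was made between groups. Among the chromatin enzymes, 3 proteases can serve the SAGA deubiquitinase module. USP22 is its usual catalytic subunit, and USP27X and USP51 are related enzymes that use the same partner proteins. USP27X had a single exon region in each line, with 40 reads against 2 in HPr1AR, 55 against 3 in LNCaP and 39 against 1 in 22Rv1, and log2 ratios of 5.51 (3.57 to 8.61), 5.37 (3.75 to 7.69) and 5.83 (3.27 to 11.2). USP51, also with 1 region in each line, had 42 reads against 0, 44 against 1 and 27 against 0, or at least 5.0, 6.64 and at least 3.72. The leading USP22 region reached 2.55 (1.63 to 3.56) in HPr1AR, at least 1.82 in LNCaP and 2.21 (1.52 to 2.96) in 22Rv1. The USP22 and USP27X intervals did not overlap in HPr1AR and 22Rv1, where both are values, though in HPr1AR they nearly met, and no test was made between genes. USP3, a histone H2A and H2B protease, led at its 3′ end with at least 2.63, at least 2.60 and 5.13. USP21, also a histone H2A protease, led at its 5′ end with at least 3.80, 3.79 and 3.38, and USP49, a histone H2B protease, at its 5′ end with 3.85, 2.84 and 5.13. Over the chromatin enzymes 14 of 32 (43.8%), 14 of 32 (43.8%) and 10 of 29 (34.5%) exon regions were higher, near the share of all exon regions in HPr1AR and LNCaP and below it in 22Rv1.

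Genes of genome stability and the p53 pathway had 31 of 131 (23.7%), 27 of 96 (28.1%) and 28 of 84 (33.3%) exon regions higher, below the share of all exon regions in each line. USP1, which deubiquitinates FANCD2 and PCNA, had 5 of its 8 shared exon sites higher in all 3 lines. USP7, the protease that stabilises MDM2 and p53, had 1 of 10 shared sites higher in all lines and 7 in none. Its leading region lay at the 3′ end in each line, with log2 ratios of 2.62 (1.91 to 3.38), at least 3.20 and 3.40 (2.39 to 4.59). USP48 was among the lowest leading regions, with 2.33, 1.91 and 1.77. USP10, which stabilises p53 and binds G3BP1, led at its 3′ end with log2 ratios of at least 2.85, at least 3.01 and 3.20. USP28, a protease of MYC and 53BP1, led there too with 2.41, 4.50 and 2.55, as did USP37, a cell cycle protease, with 3.10, 3.03 and 4.05. Leading regions are exon regions, and a USP28 intron region had larger ratios in HPr1AR and LNCaP. It held at least 53 reads against 2 (at least 5.92) and 46 against 3 (5.12). USP1, USP12 and USP46, which need the WD-repeat protein WDR48 for activity, had 11 of 21 (52.4%), 9 of 15 (60%) and 10 of 18 (55.6%) exon regions higher, few regions with shares somewhat above that of all exon regions. USP12 led at its 3′ end with 33 reads against 11, 9 against 1 and 25 against 3, and USP46 at its 3′ end with 52 against 8, 48 against 14 and 33 against 3. The genes linked to the androgen receptor in reviews and listed here (USP7, USP10, USP12, USP14, USP22 and USP46) had 21 of 55 (38.2%), 15 of 47 (31.9%) and 12 of 49 (24.5%) exon regions higher, below the share of all exon regions.

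The proteases of the proteasome and of free ubiquitin chains had 5 of 18 (27.8%), 5 of 23 (21.7%) and 5 of 26 (19.2%) exon regions higher, against 45.6%, 44.2% and 51.7% of all exon regions. USP5, which disassembles unanchored chains, had leading ratios of 1.78 (0.99 to 2.58), 2.76 (1.69 to 3.96) and 1.26 (0.51 to 2.04). The LNCaP value is from a 5′ end region that also overlaps a promoter-exon mark of CDCA3 on the opposite strand. The HPr1AR and 22Rv1 values are from the 3′ end. USP13, its close relative, had 4.06 (2.33 to 6.45), 3.76 (2.59 to 5.16) and 3.81 (2.49 to 5.50) at its 3′ end. USP14, which sits on the proteasome, had 2.68, 2.53 and 1.75. Reference levels, in which a smaller share of expressing cells and less RNA per cell cannot be told apart, also varied. They are reads of single windows whose number and position differ between lines, so they are not a measure of expression. USP13, for example, had 2, 9 and 12 exon regions. In the exon window with most reference reads, USP5 had 2.90 CPM (exact Poisson 95% interval 2.01 to 4.06), 6.88 (5.26 to 8.83) and 8.30 (5.93 to 11.3). USP13 had 0.427 CPM (0.139 to 0.996), 1.35 (0.699 to 2.36) and 1.87 (0.854 to 3.55). The USP5 level in HPr1AR was below both other intervals, and no test was made between the lines for these levels.

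Enzymes of endosomes, membranes and receptor traffic had 31 of 100, 33 of 115 (28.7%) and 28 of 63 (44.4%) exon regions higher, below the share of all exon regions. USP54 had 14, 33 and 17 regions, and the median reference level over its exon regions was 0.256, 1.35 and 1.87 CPM. Its leading ratios were at least 4.95, at least 3.20 and 3.83, and 8 of 12, 6 of 17 and 5 of 13 exon regions were higher. USP53 had 34, 7 and 5 regions, with a median reference level of 0.768, 0.338 and 0.415 CPM. Some HPr1AR reads behind these medians are smallest possible values, and the levels were not tested between lines. USP8, an endosomal protease of the epidermal growth factor receptor, had 1 higher exon region in each line, at overlapping internal positions, with log2 ratios of at least 2.63, 2.48 and 4.01. USP33, which acts on membrane receptors as USP20 does, also had a single higher exon region per line at an overlapping internal place, with 2.73, 1.59 and 2.41. USP2 led at its 3′ end with 29 reads against 0, 44 against 6 and 27 against 5, and USP32 led there in HPr1AR and LNCaP, with 4.06 and 4.46, and at an internal exon in 22Rv1, with 5.45.

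USP9X and USP34 show how higher regions were spread over long genes. USP9X, a protease of many signalling and trafficking proteins, had 27, 26 and 23 exon regions, of which 6 were higher in each line. Of its 19 sites listed in all 3 lines, 6 were higher in all 3 and 13 in none. Measured upstream from the end of the last listed exon region, the 6 lay at 148, 110, 67.9, 17.3, 4.0 and 0.855 kb in LNCaP, with log2 ratios of 1.59, 1.41, 2.18, at least 2.47, 1.97 and at least 3.31. USP34, a protease of the Wnt pathway component axin, had the most USP regions in HPr1AR, 58, with 34 in LNCaP and 18 in 22Rv1. Of its 15 shared exon sites, 5 were higher in all lines and 10 in none, at about 221, 164, 29.7, 5.83 and 3.67 kb in LNCaP. USP24 had 2 of 11 shared sites higher in all lines and 8 in none. The sites higher in all lines were the last listed exon region and the most upstream one, about 149 kb away, with log2 ratios of 2.67, 1.27 and 1.49 at the latter. A further internal region, 6.25 kb away, was higher in HPr1AR with a log2 ratio of 2.04, and the nearest internal regions of LNCaP and 22Rv1, at 0.76 and 0.72, did not pass.

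**Figure D3:**
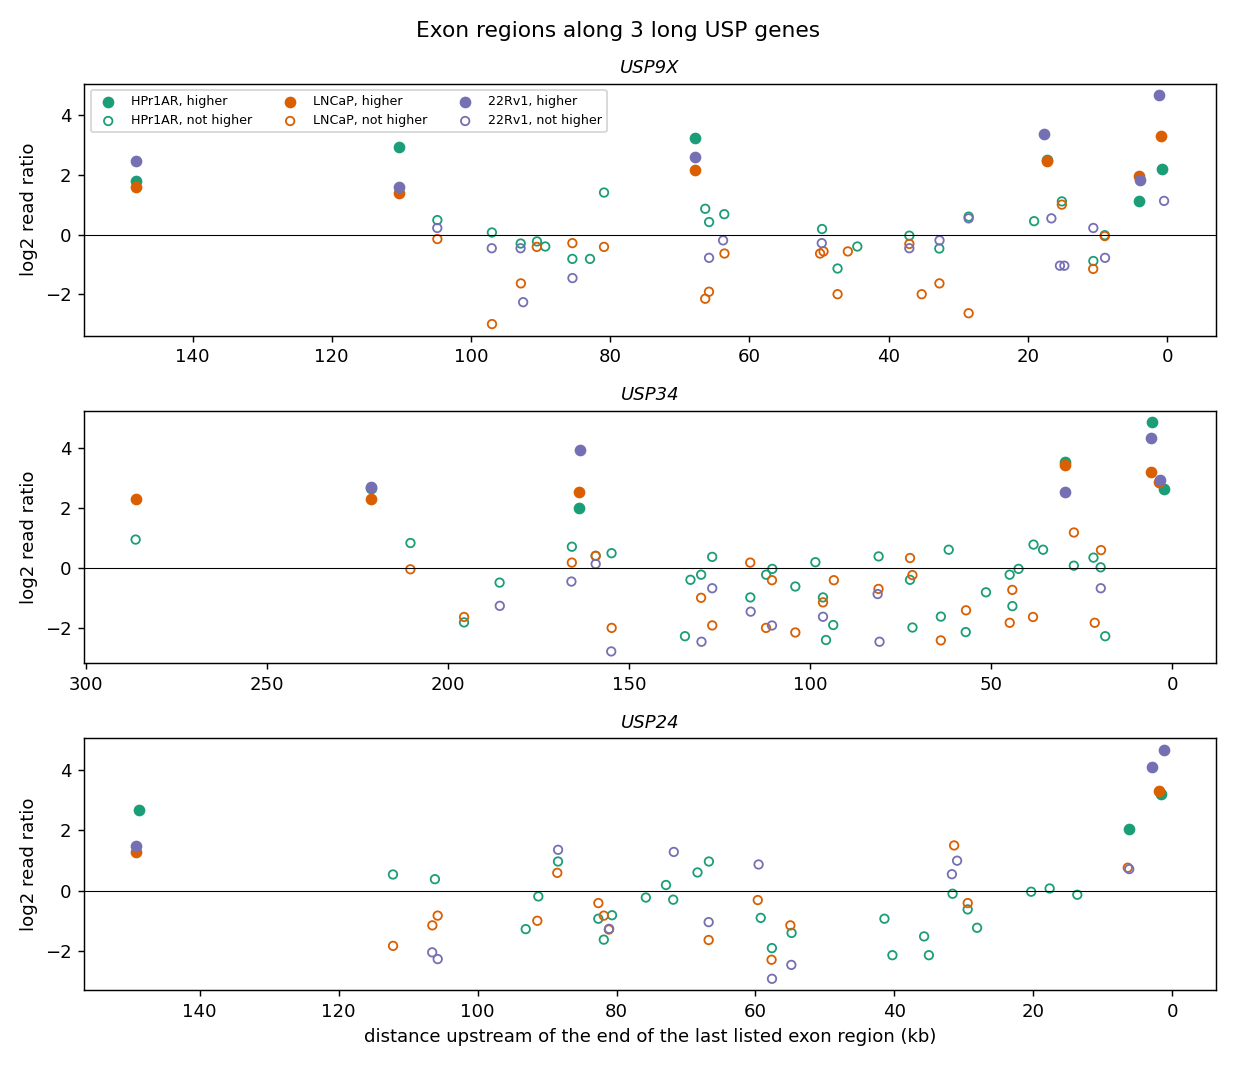
Log2 read ratio (y axis) of each exon region of USP9X, USP34 and USP24 against its distance upstream of the end of the last listed exon region (x axis, kb), coloured by cell line. Filled points were called higher and open points were not, and ratios of regions with a deposited p of 0 are lower bounds. Filled points of the 3 lines fall at the same 6 places in USP9X and the same 5 in USP34, where LNCaP has a sixth at 286 kb.

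The other genes with most regions were USP10 and USP31, with 35 each in HPr1AR as in USP9X, USP24 and USP53, with 34 each in HPr1AR, USP47, with 38 in LNCaP and 21 in 22Rv1, and USP9Y, with 53 in LNCaP and 3 in 22Rv1. Most of these regions were not higher: 10 of 35 for USP10, 10 of 35 for USP31 and 10 of 38 for USP47. USP9Y had 5 of 53 higher in LNCaP and 3 of 3 in 22Rv1. USP9X and USP9Y are close copies, and reads of one may be counted at the other, so their values are uncertain.

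Among the immune-linked enzymes, USP18, which removes the interferon-induced modifier ISG15, was the single USP gene without a higher region in some lines. Its leading exon region, internal in HPr1AR, had 36 reads against 18, a log2 ratio of 2.19 (1.34 to 3.09, adjusted p = 3.26e-07, exact binomial test). In both cancer lines the leading region lay at the 5′ end, with 4 reads against 4 in LNCaP (1.18, -1.25 to 3.60, adjusted p = 0.41 by the exact test) and 7 against 2 in 22Rv1 (2.35, -0.04 to 5.66, adjusted p = 0.0618 by the exact test). LNCaP and 22Rv1 listed 2 USP18 regions each. USP15, USP4 and USP11 are related to each other, and USP15 and USP4 led at the 3′ end in each line while USP11 led at the 5′ end. The leading USP4 region also overlaps a promoter-exon mark of C3orf62. An intron region of USP4 held 44 reads against 3 in HPr1AR and 68 against 4 in 22Rv1, log2 ratios of 5.06 and 4.63. USP25, a relative of USP28, led at the 3′ end, with at least 3.65, at least 4.64 and 5.83.

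Among the RNA-linked enzymes 13 of 47 (27.7%), 11 of 39 (28.2%) and 10 of 28 (35.7%) exon regions were higher, below the share of all exon regions. USP36, the nucleolar protease, had log2 ratios of at least 3.51, at least 4.96 and at least 4.13, the last from 36 reads against 0. USP39, a splicing factor without protease activity, led at its 5′ end in HPr1AR and LNCaP, with 16 reads against 1 (5.19) and 37 against 1 (6.39), and at an internal exon in 22Rv1, with 53 against 6 (3.69). USP30 and USP19, the mitochondrial and endoplasmic reticulum enzymes, had 6 of 10, 5 of 9 and 6 of 9 exon regions higher, too few regions to set apart from the share of all exon regions. Among enzymes with other roles, 22 of 85 (25.9%), 18 of 65 (27.7%) and 18 of 36 (50.0%) exon regions were higher, below the share of all exon regions in HPr1AR and LNCaP and near it in 22Rv1. In USP40 a single exon region per line was higher, at the 3′ end, with at least 4.62, at least 3.31 and 6.52, while the other 4 of its 5 shared sites were higher in no line. USP31 led at its 3′ end with at least 3.30, at least 3.98 and 5.17.

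Lower calls were few. In HPr1AR a 5′ end region of USP48 on chromosome 1, from 22062941 to 22063110, had 1 numerator read against 22 reference reads, a log2 ratio of -3.27 (-8.64 to -0.64, adjusted p = 0.014, exact binomial test). In LNCaP internal regions of USP7 on chromosome 16 from 8992201 to 8993060 (3 against 26), USP9X on chromosome X from 40996091 to 40996270 (1 against 18) and USP9Y on chromosome Y from 14847551 to 14848500 (4 against 35) were lower, with log2 ratios of -1.94, -2.99 and -1.95 and adjusted p of 0.0382, 0.0318 and 0.0137 by the exact binomial test. In 22Rv1 the lower regions had 0 numerator reads against 8 in USP34 (from 61493101 on chromosome 2), 8 and 9 in USP48 (from 22032621 and 22032951), 8 in USP7 (from 9000371) and 9 in USP9X (from 41078351). With 0 set to 3 reads, these ratios were at most -0.87 for 8 reference reads and at most -1.04 for 9, with adjusted p of 0.0436 and 0.0251. None of the 9 was lower at an adjusted p threshold of 0.01.

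Between lines, few overlapping USP regions differed in read ratio, and those that did paired different windows. An exact conditional test (two-sided, Benjamini-Hochberg adjusted over all overlapping region pairs of 2 lines) was made on 380 USP pairs of HPr1AR and LNCaP, 263 of HPr1AR and 22Rv1 and 272 of LNCaP and 22Rv1. A further 51, 47 and 41 pairs had bounded reads and were left out. Of the tested pairs, 2, 7 and 0 differed at 0.05, against 0.84%, 0.913% and 0.68% of all pairs tested, and all 9 were higher in HPr1AR. The 7 of 263 for HPr1AR and 22Rv1 are a larger share than over all pairs, and the 2 of 380 and 0 of 272 a smaller one. The shares were not tested, and several of the 9 pairs share a region. At an unadjusted p of 0.05 there were 31 (8.16%), 22 (8.37%) and 20 (7.35%) USP pairs, near the 6.78%, 7.16% and 6.39% of all pairs tested.

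USP22 gave 4 of the 9 pairs. Its internal HPr1AR region on chromosome 17 from 20918081 to 20921440, with 36 reads against 14, overlapped 22Rv1 regions from 20919061 (11 against 20) and 20921271 (6 against 14), differences of 2.87 and 3.23 on the log2 scale (adjusted p = 0.00922 and 0.0126, exact conditional test). A second HPr1AR region from 20923711, with 19 against 5, differed by 4.74 from 22Rv1 (2 against 9) and by 5.11 from an intron region of LNCaP (1 against 9). USP7 gave 2 pairs with 22Rv1, where 27 against 10 in HPr1AR stood against 3 and 10 or 5 and 12, differences of 3.81 and 3.34. The other pairs were USP14 with 22Rv1 (45 against 16 and 3 against 10, 3.87, at a region that also overlaps an exon of THOC1 on the opposite strand, from which reads cannot be told apart without strand), USP18 with 22Rv1 (36 against 18 and 3 against 11, 3.52) and USP37 with LNCaP (49 against 13 and 1 against 8, 4.93). The next pair, USP7 with 22Rv1 at its 3′ end, missed the threshold (3.88, adjusted p = 0.0567 by the exact test).

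In each of the 9 pairs the HPr1AR region was the longer one, and the representative windows lay at least 90 bp apart in USP18 and at least 320 to 1490 bp apart in the others. Of the 293, 187 and 209 USP pairs whose windows can lie within 100 bp of each other, 0 differed when those pairs alone were tested and adjusted. The USP18 pair is among them, with its difference of 3.52 unchanged and an adjusted p of 0.193 over these pairs (exact conditional test). All pairs of that kind differed in 0.0665%, 0.0743% and 0.0329%. The median difference over USP pairs was 0.43, 0.45 and 0.16 on the log2 scale, against 0.22, 0.20 and 0.07 over all pairs.

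**Figure D4:**
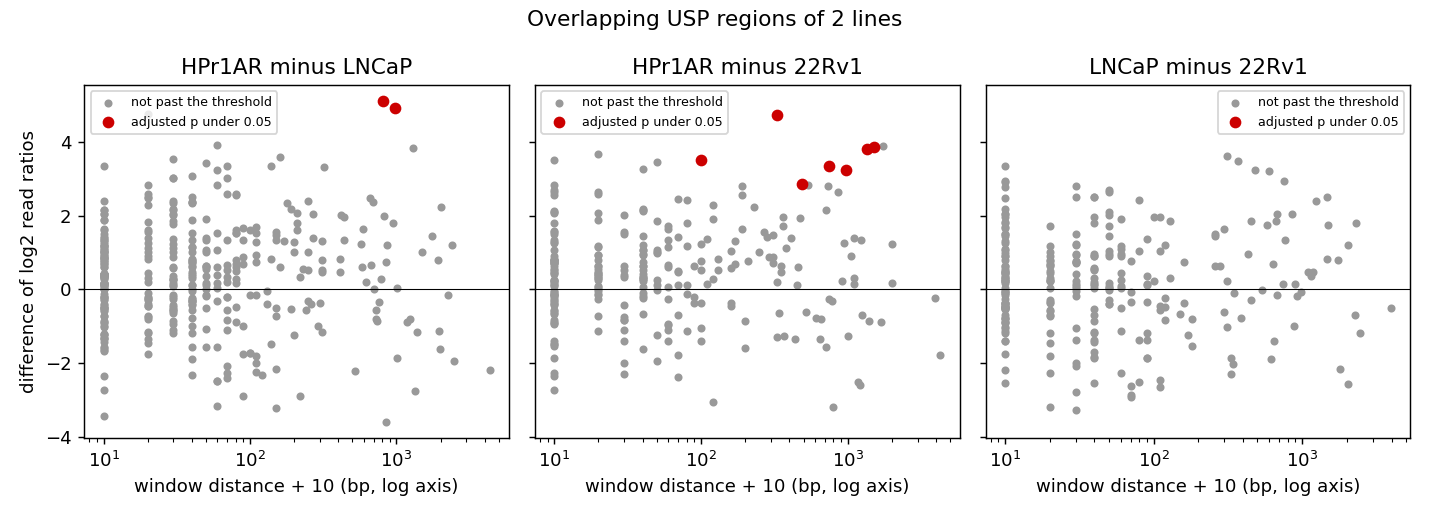
Difference of log2 read ratios (y axis, first line minus second) of overlapping USP regions of 2 lines against the least distance between their representative windows plus 10 bp (x axis, log axis), with 1 panel per pair of lines. Red points passed the adjusted p threshold of 0.05 and grey points did not. The 9 red points are all above 0 and none lies at a distance under 90 bp.

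Deubiquitinases of other families and partner proteins of USP enzymes were looked at for context, from a list of 39 and 10 genes. Of the 47 listed in all 3 lines, 42 had a higher region in each, and 35.6%, 42.6% and 50.2% of the regions of all 49 genes were higher, against 40.6%, 40.0% and 56.4% of all regions. The partners WDR48, ATXN7, ATXN7L3 and ENY2 had a higher region in every line, as did all 10 partner genes. MINDY4, OTUD1 and ATXN7, a SAGA subunit, had the smallest limits on the adjusted p over the 3 lines, with OTUD1 at log2 ratios of at least 4.95, at least 6.96 and at least 5.03. EIF3F, a translation initiation subunit of the JAMM protease family, had no higher region in any line, with 14 reads against 48 in LNCaP (-0.60, -1.57 to 0.28). No higher region was found for UCHL1, OTUD7A and EIF3H in HPr1AR, for COPS5 and PSMD14 in LNCaP, and for COPS5, EIF3H and STAMBP in 22Rv1.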

How the data were processed

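The authors deposited 1 table of regions per line, with a log2 fold per region and p-values, raw and adjusted, per the file headers. The sources used here do not give the aligner, the window counter or the test. A build, hg38, is named in the submitters' processing notes, and 0 columns of values per sample were left unused. With a small prior added to each read number, the deposited log2 fold equalled the numerator log minus 2 times the reference log, up to a fixed offset. The deposited p-value was that of a Poisson likelihood ratio whose scale varied with the reads. Constants were fitted on regions of 1 window. Whole reads were then sought up to 300 numerator reads and found for 99.99%, 97.6% and 99.98% of regions with p above 0 in HPr1AR, LNCaP and 22Rv1. After a random shift of the folds, 0.229%, 9.82% and 1.87% were found, so LNCaP reads are the least certain. Regions with a deposited p of 0 (42, 34 and 0 USP regions) got the smallest reads that reach it. So did 11, 339 and 0 regions of the whole tables with p above 0 for which no reads were found. In LNCaP 35 USP regions have such smallest reads.

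Depths were derived from the fitted constants and were not checked against sequenced reads. The representative window was located from its running number, which fell inside its region in 100% of regions. A count of 0 was set to 3 reads, and intervals are exact at 95% and cover counting error only. Windows are 20 bp wide with a step of 10 bp. Tests were exact binomial tests within a table and exact conditional tests between tables, adjusted by Benjamini-Hochberg over all regions or pairs at 0.05. The steps were tested on simulated data made with the same fitted formula and independent Poisson reads. Such data cannot check the formula itself or the depths. The calculations used Python 3.11.15, numpy 2.4.6, scipy 1.17.1 and pandas 2.3.3.

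The USP genes, the other gene list, the roles and the rules were chosen with earlier results of these data known. Full values are given for the 8 genes with the smallest largest adjusted p over the lines, the region of smallest adjusted p per line, every lower region, every gene without a higher region, up to 10 pairs between lines and the 5 genes with most regions. Other USP genes were named by role.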

Additional observations from a re-analysis of the deposited data

Results flagged for a closer look

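Overlapping USP regions that differed between lines by the exact conditional test are listed here, all higher in HPr1AR. Against 22Rv1 the differences of log2 read ratios were 2.87, 3.23 and 4.74 in USP22, 3.87 in USP14, 3.81 and 3.34 in USP7 and 3.52 in USP18. Against LNCaP they were 4.93 in USP37 and 5.11 in USP22. The representative windows lay at least 90 bp apart in the USP18 pair and at least 320 bp apart in the others. Among pairs with windows within 100 bp, which hold the USP18 pair alone of these, 0 passed when adjusted over those pairs only, and the adjusted p of USP18 was then 0.193 with its difference unchanged. The part of the distance in the other differences was not tested.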

How the results depend on the processing

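The counts of higher USP regions in HPr1AR, LNCaP and 22Rv1 stayed within 1.5 times of 192, 156 and 141 under 7 of 8 alternatives and were 72, 55 and 42 with depths in the ratio of summed reads. With those depths, an alternative for gene counts chosen after seeing the data, USP genes with a higher region numbered 28 in 22Rv1 (45) and 25 in all 3 lines (44), and the number of lines with a higher exon region changed by over 1.5 times in 15 genes. The share of USP 3′ end regions called higher was 73.3% in HPr1AR and 63.9% in LNCaP above the shared read rate, against 76.7% and 72.6% of all 3′ end regions at that rate. Pairs that differed between HPr1AR and LNCaP (2) and between HPr1AR and 22Rv1 (7) were 0 and 0 at a reciprocal overlap of 50%, 0 and 1 at an adjusted p of 0.01, and 0 and 0 with windows within 100 bp, the last chosen after seeing the data. A reciprocal overlap of 50% left 255 of 431, 161 of 310 and 169 of 313 USP pairs. No paired analysis was possible because the tables hold no values per sample, and for the same reason no sample could be left out. The median USP region holds 12, 11 and 12 reads, so a missed call does not show equal pull-downs. All calls rest on the rebuilt depths, which assume priors in proportion to depth.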
